A study of Mus musculus with 6 samples.

Results

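The 7 genes described here encode silencing factors that act beside Setdb1 on chromatin: the HUSH (human silencing hub) genes Mphosph8, Fam208a (also called Tasor) and Pphln1, the HUSH effector Morc2a, the histone chaperone pair Atrx and Daxx, and the remodeller Smarcad1. They were taken by name from a table of 55487 genes, with earlier results of these data known. All 7 were found in it and had enough counts to be tested. The data were RNA sequencing counts from muscle stem cells of mice 10 weeks old, taken 60 h after cardiotoxin, a venom toxin that destroys muscle fibres and starts their repair. The 3 control libraries were labelled WT and given oil, and the 3 knockout (KO) libraries were labelled KO for Setdb1 and given tamoxifen. Tamoxifen and genotype changed together and cannot be told apart. The Cre driver, the floxed allele and whether animals were pooled are not stated by the labels. The libraries of a group are labelled as biological replicates.

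HUSH binds methylated lysine of histone H3 (the H3K9 mark) through the chromodomain protein MPP8, the product of Mphosph8, and brings in SETDB1, which adds more of the mark. The complex is known for silencing retroelements and long transcribed DNA without introns. ATRX and DAXX together load the histone variant H3.3 into heterochromatin, telomeres and retroelements, where SETDB1 also acts. SMARCAD1 is an ATPase that binds TRIM28, the platform on which SETDB1 is recruited by zinc finger proteins. In muscle stem cells, H3K9 methylation is associated with the silencing of genes of other lineages and of repeats.

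The promoters are shown first because they are the sequence features the genes have beyond the choice by name. All 7 matched the RefSeq promoter table (GRCm38.p6), which gives 300 bases per start, 250 before and 50 after it, and the most upstream start was used for each gene. CpG-rich promoters predominated. The observed to expected CpG ratio exceeded 0.6 in 6 of 7, a level reached by 36.5% of the 27025 promoters in the table, and the exception was Atrx at 0.583. That background, used for every share here, was not limited to genes expressed in these libraries, whereas all 7 were expressed. No share over expressed genes alone was taken, so the shares do not set the 7 apart from other expressed genes. The median over all promoters was 0.389, and Morc2a had the highest value of the 7, 1.3. The Morc2a window (chr11:3649187-3649486) lies almost wholly inside the gene as GENCODE annotates it, from 3649191. Its ratio and motifs thus describe bases within that annotation. The CCAAT box (CCAAT, either strand) occurred in 5 of 7, against 38% of all promoters, with 4 matches in Atrx. The GC box (GGGCGG, either strand) occurred in 4 of 7, against 35.9%, and an ETS-type site (CCGGAAG, either strand) in 2 of 7, Pphln1 and Daxx, against 9.14%. TATAAA and the E-box CAGCTG, the latter of a form bound by muscle regulatory factors, matched none of the 7 windows, against 14.2% and 16.1% of all promoters. These matches describe letters and not occupied sites.

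The 100 bases before the most upstream start annotated by RefSeq or GENCODE are printed for 4 genes. In Pphln1 and Daxx an annotated exon of a neighbouring gene covers them, and in Morc2a the RefSeq window does not reach them. The 4 include the genes with the highest and the lowest fold change of the 7, Fam208a and Smarcad1. The sequences run 5′ to 3′ on the gene's strand, and capitals mark the searched motifs, which read ATTGG or CCGCCC where they lie on the other strand. The positions are chr14:56668148-56668247 (plus strand) for Mphosph8, chr14:27428734-27428833 (plus) for Fam208a, chrX:105929404-105929503 (minus) for Atrx and chr6:65042483-65042582 (plus) for Smarcad1.
Mphosph8: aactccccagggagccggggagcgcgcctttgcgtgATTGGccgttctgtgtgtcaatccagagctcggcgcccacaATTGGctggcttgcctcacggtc
Fam208a: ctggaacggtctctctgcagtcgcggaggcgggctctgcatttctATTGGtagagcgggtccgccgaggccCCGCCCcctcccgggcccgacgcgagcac
Atrx: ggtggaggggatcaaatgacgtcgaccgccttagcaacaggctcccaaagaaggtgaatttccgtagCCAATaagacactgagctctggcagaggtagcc
Smarcad1: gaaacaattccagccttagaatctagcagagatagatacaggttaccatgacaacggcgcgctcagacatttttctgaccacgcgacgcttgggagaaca
Smarcad1, which held no searched motif in these bases, had 6 CpG, Fam208a had 12, Mphosph8 8 and Atrx 4.

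Total counts per library ran from 4052569 to 5690844, of which protein-coding genes took 2002124 to 3050460. The lowest of both was KO library 1, in which a single ribosomal RNA gene took 38.4% of counts, against 28.6% to 32.2% in the others. Each of the 8 muscle stem cell markers was detected in every library (summed level 1260 to 1340 CPM, counts scaled to library size, in control and 1430 to 1850 in KO libraries), and 1 of them, Myod1, rose. Summed neutrophil markers ranged from 1.25 to 1150 CPM over control and from 3.99 to 412 over KO libraries, with the highest value in control library 3. In control libraries 1 and 2, 6 of the 8 were at 0, in KO library 1, 3, and in KO libraries 2 and 3, 1 each. Summed fibro-adipogenic markers ran from 570 to 1330 CPM in control and from 1180 to 1750 in KO libraries, with none of the 7 at 0. The 8 macrophage markers summed to 9.81 to 112 CPM in control and 10.6 to 46.6 in KO libraries, and the 6 endothelial markers to at most 14.4 in any library. The part of other cells in the results was not tested, and in bulk RNA fewer cells of a type and less RNA per cell cannot be told apart.

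Setdb1, the deleted gene, had 34.8, 40.5 and 32.1 CPM in control libraries and 16.5, 12.7 and 14.7 CPM in KO libraries. The groups did not overlap, and the labels and the gene matched in all 6 libraries (log2 fold change -1.30, SE 0.16, edgeR adjusted p = 2.092e-04).

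Transcripts of the 7 genes did not pass the test in either direction. In edgeR's quasi-likelihood test, 0 of 7 had an adjusted p under 0.05, against 2.83% of the 11224 genes tested (2.22% higher and 0.615% lower). DESeq2 and limma-voom also called 0 of 7, against 1.26% and 2.72% of the genes they gave an adjusted p. At an unadjusted edgeR p under 0.05, Fam208a and Morc2a were higher and Smarcad1 was lower. The share of all tested genes was 17.7% (10.1% higher and 7.64% lower). Limma-voom placed the same genes under this level. DESeq2 placed none of them under it, and among the 7 only Atrx, which was lower, was under it there. Fold changes in edgeR were negative in 4 of the genes and positive in 3, and their median was -0.11, against 0.0074 over all tested genes. The 95% interval of each of the 7 lay between a 2-fold fall and a 2-fold rise, as it did for 75.9% of all tested genes. The outermost bounds were a fold of 0.654 (Smarcad1) and a fold of 1.59 (Fam208a).

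**Figure D1:**
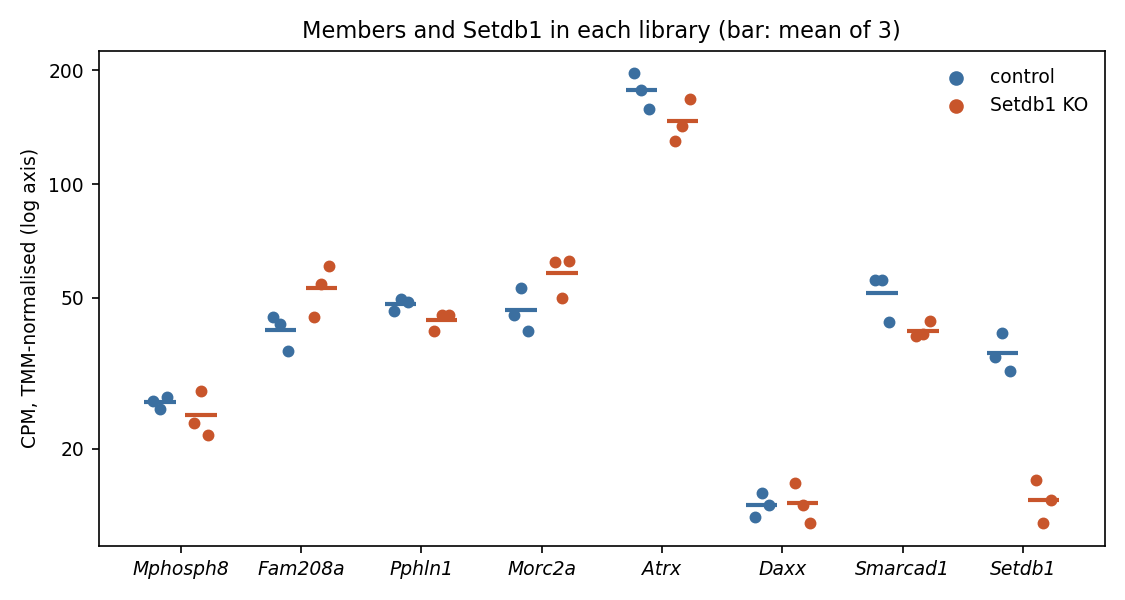
Level of each of the 7 genes and of Setdb1 in every library, in TMM-normalised CPM on a log axis, with control libraries in blue, KO libraries in orange and a bar at the mean of 3. Setdb1 separates widely between groups, Pphln1 separates narrowly, and the other genes overlap.

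Mphosph8 encodes MPP8, the HUSH subunit that reads H3K9 methylation. Its level was 26.6, 25.5 and 27.3 CPM in control libraries and 23.4, 28.3 and 21.7 CPM in KO libraries. KO library 2 was the highest of all 6 and the other 2 KO libraries the lowest, so the groups overlapped. The mean went from 26.5 ± 0.94 to 24.5 ± 3.45 CPM (SD, n = 3 each; log2 fold change -0.11, 95% interval -0.43 to 0.20, edgeR adjusted p = 0.734). Without KO library 2 the fold change was -0.24 on the log2 scale, and without KO library 3 it was -0.04 (edgeR adjusted p = 0.535 and 0.94). The gene lies on chromosome 14 (56668248 to 56697430, plus strand, GRCm38).

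Fam208a encodes TASOR, the scaffold that holds the HUSH subunits together. It had 44.7, 42.8 and 36.2 CPM in control and 44.4, 54.4 and 60.6 CPM in KO libraries. KO library 1 lay just below control library 1, and the other 2 KO libraries lay above every control. The mean went from 41.2 ± 4.44 to 53.1 ± 8.16 CPM (SD, n = 3 each). The fitted log2 fold change was 0.37 (SE 0.14, 95% interval 0.07 to 0.67, edgeR unadjusted p = 0.0188, adjusted p = 0.184). Without KO library 3 it was 0.25 and without control library 3 it was 0.28 (edgeR unadjusted p = 0.139 and 0.0783). Without KO library 1 it was 0.48 (edgeR unadjusted p = 0.00472), the highest with 1 library left out. Fam208a (chromosome 14, 27428834 to 27483555, plus strand) shares 1763 of its 13627 exon bases with exons of Ccdc66 on the opposite strand, and the strand setting of the counting is not stated. Ccdc66 was at 14.8 ± 3.28 CPM in control and 12.3 ± 2.13 CPM in KO libraries (SD, n = 3 each; log2 fold change -0.26, edgeR adjusted p = 0.555).

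Pphln1 encodes periphilin, the third core HUSH subunit, which binds RNA. It had 46.3, 49.7 and 48.8 CPM in control and 41.0, 45.0 and 44.9 CPM in KO libraries. Every KO library lay below every control, which was true in the same direction of 11.5% of all tested genes, and Pphln1 was the only one of the 7 whose groups did not overlap in either direction (24.3% of all tested genes). The change was small, from 48.2 ± 1.77 to 43.6 ± 2.31 CPM (SD, n = 3 each; log2 fold change -0.14, 95% interval -0.39 to 0.11, edgeR adjusted p = 0.562). Pphln1 lies on chromosome 15 (93398350 to 93491510, plus strand) and shared 1.84% of its 50-base words with transcripts of other genes, the highest share of the 7.

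Morc2a encodes an ATPase that compacts chromatin at HUSH targets. It had 45.1, 53.2 and 41.0 CPM in control and 62.2, 50.1 and 62.7 CPM in KO libraries. KO libraries 1 and 3 lay above every control and KO library 2 within the control range. The mean went from 46.4 ± 6.23 to 58.4 ± 7.15 CPM (SD, n = 3 each), with a fitted log2 fold change of 0.33 (SE 0.14, 95% interval 0.04 to 0.62, edgeR unadjusted p = 0.029, adjusted p = 0.221). Without control library 3 and KO library 1 it was 0.20 (edgeR adjusted p = 0.516). Without control library 3 alone it was 0.24 (edgeR adjusted p = 0.386), and it ran up to 0.43 with 1 library left out. On chromosome 11 (3649191 to 3690477, plus strand), 483 of its 6422 exon bases overlap exons of the noncoding RNA gene Tug1 on the opposite strand. Tug1 was at 88.3 ± 6.80 CPM in control and 85.4 ± 15.4 CPM in KO libraries (SD, n = 3 each; log2 fold change -0.04, edgeR adjusted p = 0.903).

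Atrx encodes the ATPase of the ATRX-DAXX complex. It had 196, 177 and 158 CPM in control and 130, 143 and 168 CPM in KO libraries. KO libraries 1 and 2 lay below every control, and KO library 3 within the control range. The mean went from 177 ± 19.1 to 147 ± 19.1 CPM (SD, n = 3 each; log2 fold change -0.27, SE 0.13, 95% interval -0.55 to 0.01, edgeR adjusted p = 0.297). The gene spans 105797615 to 105929403 of chromosome X (minus strand) and had 489 to 980 counts per library, the most of the 7.

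Daxx encodes the H3.3 chaperone that ATRX recruits. It had 13.2, 15.2 and 14.2 CPM in control and 16.2, 14.2 and 12.7 CPM in KO libraries, so the KO libraries held both the highest and the lowest value. The means were 14.2 ± 1.01 and 14.4 ± 1.77 CPM (SD, n = 3 each; log2 fold change 0.0072, 95% interval -0.36 to 0.38, edgeR adjusted p = 0.989), and the sign of this fold change turned with the scaling. With 61 to 77 counts per library, Daxx (chromosome 17, 33909414 to 33915590, plus strand) was the least deeply counted of the 7 and had the widest interval.

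Smarcad1 had 55.7, 56.0 and 43.2 CPM in control and 39.6, 40.0 and 43.4 CPM in KO libraries. KO library 3 lay just above control library 3, and both other controls lay well above all KO libraries. The mean went from 51.6 ± 7.27 to 41.0 ± 2.06 CPM (SD, n = 3 each), with a fitted log2 fold change of -0.33 (SE 0.13, 95% interval -0.61 to -0.04, edgeR unadjusted p = 0.0262, adjusted p = 0.214). Control library 3 was the one control at the KO level. That library also had the most neutrophil transcript, and any link was not tested. Without control library 3 the log2 fold change was -0.44 (edgeR adjusted p = 0.0825), the lowest adjusted p of the 16 alternatives, which ran up to 0.684 (DESeq2). With KO library 1 left out too it was -0.42 (edgeR adjusted p = 0.0966). Without control library 1 or control library 2 it was -0.28 in each case (edgeR adjusted p = 0.389 and 0.521). The gene lies on chromosome 6 (65042583 to 65116061, plus strand).

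**Figure D2:**
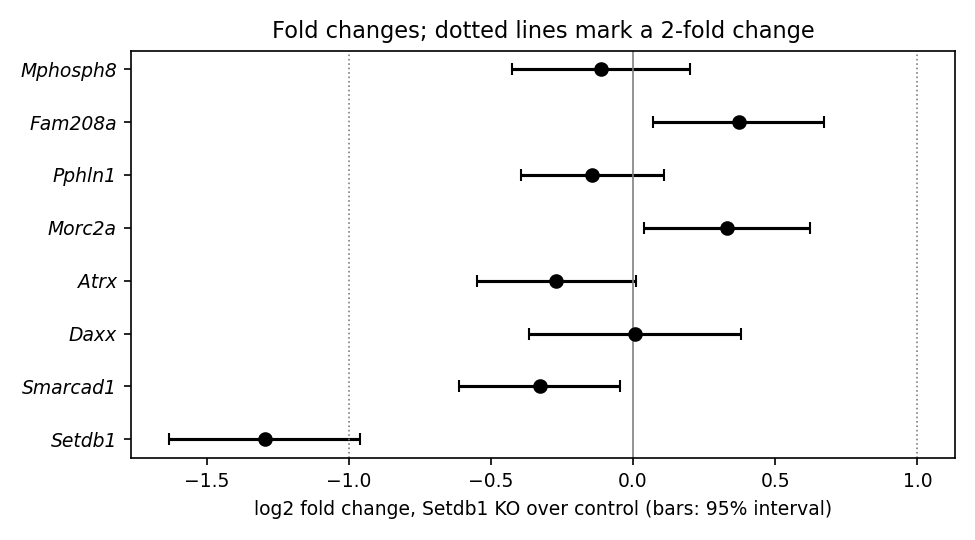
log2 fold change of KO over control for the 7 genes and Setdb1, with points at the edgeR estimate, bars for the 95% interval and dotted lines at a 2-fold change. The intervals of Fam208a, Morc2a and Smarcad1 leave out 0 before adjustment, and every interval but that of Setdb1 stays inside the dotted lines.

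Levels of different genes were compared per length, as CPM per kilobase of annotated exon. The length joined all annotated exons of a gene, from 3.15 kilobases (Daxx) to 21.8 (Atrx), and the order depends on it. Which transcripts of a gene were present was not tested. Before division by length, the control means of Smarcad1 (51.6 CPM) and Fam208a (41.2 CPM) lay above that of Mphosph8 (26.5 CPM). In control libraries Pphln1 was highest at 10.6 ± 0.39 CPM per kilobase, above all others in every library. Atrx (8.15 ± 0.88), Mphosph8 (7.38 ± 0.26) and Morc2a (7.23 ± 0.97) came next and overlapped from neighbour to neighbour. Daxx (4.51 ± 0.32), Smarcad1 (3.87 ± 0.55) and Fam208a (3.02 ± 0.33) formed a lower set, separated from Morc2a in every library, in which each overlapped its neighbour (SD, n = 3 each). Deleted Setdb1 was at 5.23 ± 0.62 in control and 2.13 ± 0.27 in KO libraries, below all 7 genes in the latter. Over all 6 libraries the levels per length of the 7 lay between percentiles 46.0 (Fam208a) and 76.8 (Pphln1) of the tested protein-coding genes.

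In the order of KO means per length, Morc2a and Atrx had exchanged places, as had Fam208a and Smarcad1. Pphln1 (9.60 ± 0.51 CPM per kilobase) and Morc2a (9.09 ± 1.11) overlapped at the top, and Mphosph8 (6.83 ± 0.96) overlapped both Morc2a's lowest library and Atrx (6.75 ± 0.88). Daxx followed at 4.56 ± 0.56, and Fam208a (3.90 ± 0.60), last in control libraries, stood above Smarcad1 (3.08 ± 0.15) in every KO library (SD, n = 3 each).

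The ratio of one gene to another within a library does not depend on how libraries are scaled, so all 21 pairs were compared. In 8 pairs the control and KO ratios did not overlap, against 23.1% of all 62111085 pairs of tested genes with counts in every library. These pairs share genes, and each of the 8 involved Fam208a or Morc2a. The smallest p that an exact permutation test can give with 3 against 3 is 0.1, so no pair can pass 0.05.

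Within the HUSH core, the level per length of Mphosph8 was 2.27, 2.26 and 2.87 times that of Fam208a in control libraries and 2.00, 1.98 and 1.36 times in KO libraries. Every KO ratio was thus lower (mean log2 difference -0.48, exact two-sided permutation p = 0.1). Fam208a relative to Pphln1 was 0.322, 0.287 and 0.248 in control and 0.362, 0.404 and 0.450 in KO libraries, again without overlap (log2 difference 0.51, exact permutation p = 0.1). The ratio of Mphosph8 to Pphln1 overlapped between groups and differed by 0.02 on the log2 scale (exact permutation p = 0.9).

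The largest difference was that of Fam208a to Smarcad1, with ratios per length of 0.784, 0.748 and 0.819 in control and 1.10, 1.33 and 1.36 in KO libraries (log2 difference 0.68, exact permutation p = 0.1). Morc2a to Smarcad1 went from 1.68, 1.97 and 1.97 to 3.26, 2.60 and 3.00 (log2 difference 0.65). Fam208a to Atrx and Morc2a to Atrx were also higher in every KO library, by 0.63 and 0.60 on the log2 scale. Pairs that stayed close were Fam208a to Morc2a (log2 difference 0.03) and Atrx to Smarcad1 (0.05), while the ratio of the partners Atrx and Daxx overlapped between groups (log2 difference -0.28, exact permutation p = 0.4).

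**Figure D3:**
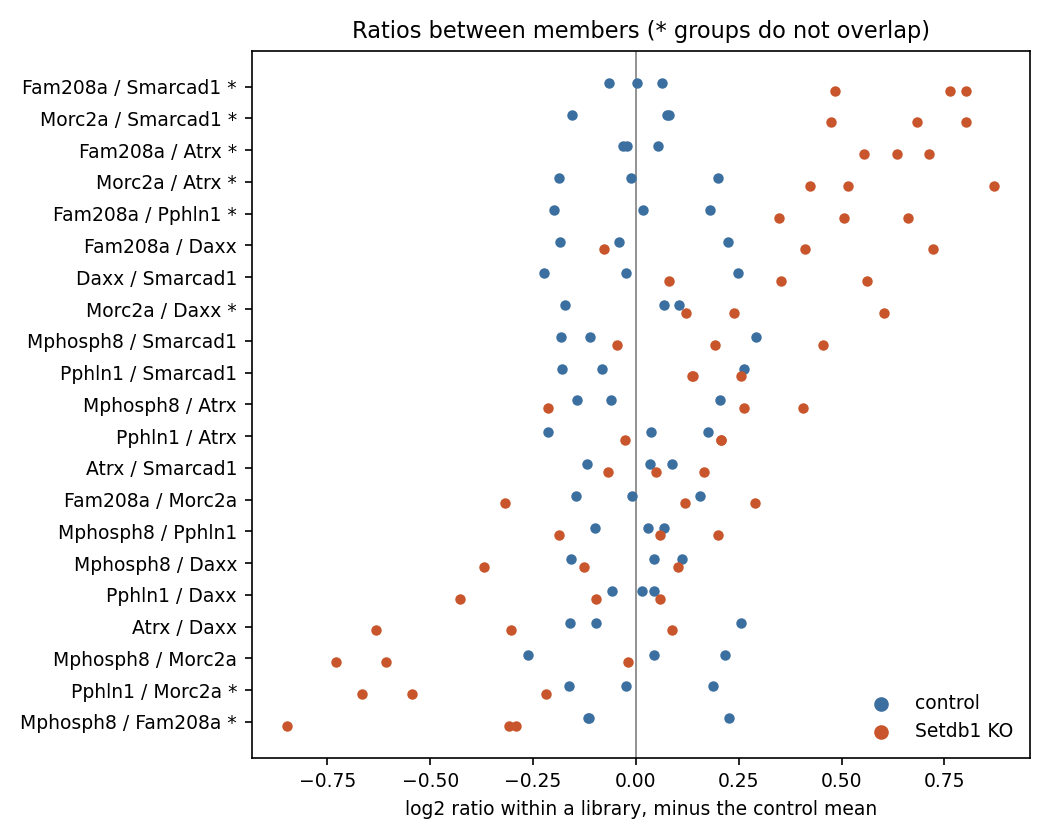
Within-library ratio of the levels per length for all 21 pairs, on the log2 scale and centred on the control mean, with 1 point per library (blue control, orange KO). The groups do not overlap in the 8 starred pairs, each of which involves Fam208a or Morc2a.

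Profiles over the 6 libraries were compared by the root mean square difference of log2 CPM, each gene centred on its own mean. Among the 7, Atrx and Smarcad1 were the closest pair (0.0948), followed by Mphosph8 and Pphln1 (0.122), and Fam208a and Smarcad1 were the farthest apart (0.355). Among 7077 tested genes of at least 10 CPM, the genes most like Atrx were the amino acid transporter gene Slc38a2 (0.0104) and the dynein gene Dync2h1 (0.0122). Those most like Smarcad1 were the SUMO protease gene Senp1 (0.0316) and Isoc1 (0.0386). For Fam208a they were Tmem106b (0.0629) and the Wnt co-receptor gene Lrp6 (0.0634), and for Morc2a the closest was Tob2 (0.0529). For Pphln1 they were Ptpmt1 (0.0223) and Fxr1 (0.0251), for Mphosph8 Rpe (0.0389) and Fosl1 (0.0417), and for Daxx Bcar1 (0.0393) and Ubac2 (0.0409). These genes were chosen for likeness to genes that did not pass, in the same 6 libraries. Their own test results follow largely from that choice and are not a separate result. None of these genes passed the edgeR test (adjusted p from 0.235 to 0.988), and DESeq2 and limma-voom called none. In edgeR, 2 of them, Lrp6 and Senp1, were under an unadjusted p of 0.05.

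Genes related to the 7 by partnership, family or function were described from 7 lists of 93 genes, of which 85 were tested. In edgeR 4 were higher and 2 lower, or 7.06% against 2.83% of all tested genes, but these include Setdb1 itself, and the lists were chosen with earlier results known. Fold changes were negative in 65 of the 85, against 49.1% of all tested genes, with a median of -0.18.

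Among 9 tested HUSH and Setdb1 cofactors, Resf1 and Atf7ip rose and Setdb1 fell (median -0.04). Over all tested genes, 2.22% were higher and 0.615% lower in edgeR. Atf7ip, whose product stabilises SETDB1 in the nucleus, was at 65.3, 47.2 and 53.4 CPM in control and 166, 153 and 185 CPM in KO libraries (log2 fold change 1.60, SE 0.14, edgeR adjusted p = 5.614e-06). Resf1, whose product acts with SETDB1 on retroelements, rose by a log2 fold change of 2.25. Both thus rose several-fold while the interval of each HUSH gene stayed under a 2-fold change. Fam208b, the paralog of Fam208a, was chosen after its values were seen and was at 87.0 ± 16.7 and 88.0 ± 6.23 CPM (SD, n = 3 each; log2 fold change 0.02, 95% interval -0.28 to 0.31).

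In the MORC family, Morc3 rose, from 44.7, 52.0 and 38.8 CPM in control to 79.0, 96.9 and 96.9 CPM in KO libraries (log2 fold change 1.01, SE 0.14, edgeR adjusted p = 4.653e-04). MORC3 is a nuclear body ATPase known for silencing endogenous retroviruses together with DAXX. The groups of Morc3 were well apart, unlike those of Morc2a. It was 1 of 2 tested genes of this list, and 2.22% of all tested genes were higher. Morc4 was at 23.5 ± 1.90 and 19.8 ± 0.60 CPM (SD, n = 3 each; edgeR adjusted p = 0.401), and Morc1 and Morc2b had too few counts to be tested. Morc2b, the paralog of Morc2a, had 0, 0 and 0 counts in control and 2, 0 and 1 in KO libraries; Morc4 and Morc2b were chosen after their values were seen.

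None of 11 genes of histone H3.3 and of chaperones of H3-type histones, not all specific to H3.3, passed in edgeR, DESeq2 or limma-voom. Fold changes were negative in 9 of the 11 (median -0.26), against 49.1% of all tested genes. At an unadjusted edgeR p under 0.05, 3 of the 11 were lower and 1 was higher, against 7.64% and 10.1% of all tested genes. The proliferation markers had a similar median, -0.26, and their part in this was not tested. The H3.3 gene H3f3b was at 320 ± 21.5 CPM in control and 267 ± 34.0 CPM in KO libraries (SD, n = 3 each; edgeR adjusted p = 0.304). Dek, a chromatin protein with H3.3 chaperone activity, was at 318 ± 21.5 and 251 ± 63.1 CPM (SD, n = 3 each; edgeR adjusted p = 0.314), with 179 CPM in KO library 1 and 298 and 274 CPM in the other 2. Without KO library 1, the log2 fold change went from -0.34 to -0.15 for Dek and from -0.26 to -0.16 for H3f3b. Of 12 tested genes of the PML nuclear body, where DAXX is stored, none passed with these tools (median -0.04). Unadjusted edgeR p-values were under 0.05 for 0 higher genes and 1 lower gene, against 10.1% and 7.64% of all tested genes. The 2 most abundant genes of this body, Sumo2 and the deubiquitinase gene Usp7, had log2 fold changes of -0.07 and -0.30 (edgeR adjusted p = 0.803 and 0.225).

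Of 25 tested SNF2-type remodellers, the enzyme family of ATRX and SMARCAD1, Hells fell and none rose (median -0.16). The shares of all tested genes were 0.615% lower and 2.22% higher. Negative fold changes numbered 20 of 25, against 49.1% of all tested genes. At an unadjusted p under 0.05 in edgeR, 6 were lower and 0 higher, against 7.64% and 10.1% of all tested genes. HELLS is a remodeller needed for DNA methylation of repeats. It was at 116, 121 and 99.2 CPM in control and 46.0, 74.5 and 73.1 CPM in KO libraries, without overlap (log2 fold change -0.79, SE 0.17, edgeR adjusted p = 0.0291). The call was lost on leaving out control library 1, control library 2 or KO library 3 (edgeR adjusted p = 0.117, 0.14 and 0.0501). Of the 8 proliferation markers, 1 (Mcm7) fell in edgeR and Ccnb1 had a log2 fold change of -0.02. All but Ccnb1 were lower in every KO library than in every control, which was true of 11.5% of all tested genes. The log2 fold changes of those others ran from -0.45 (Mcm7) to -0.21 (Cdk1). The 8 summed to 2210 to 2300 CPM in control and 1680 to 1960 CPM in KO libraries with none at 0, and their part in the result was not tested.

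Of 16 tested readers and writers of H3K9 methylation and of the linked DNA methylation, Mbd1 rose and none fell (median -0.16, 13 negative). Over all tested genes, 2.22% were higher, 0.615% were lower and 49.1% had a negative fold change. At an unadjusted p under 0.05 in edgeR, 4 of the 16 were lower and 1 was higher, against 7.64% and 10.1% of all tested genes. Mbd1, which encodes a methyl-CpG binding protein that works with SETDB1, was at 19.2, 15.0 and 15.0 CPM in control and 41.0, 40.2 and 29.5 CPM in KO libraries (log2 fold change 1.16, SE 0.17, edgeR adjusted p = 9.882e-04). Every KO library exceeded every control. None of 10 genes of nuclear RNA decay and export passed in edgeR, DESeq2 or limma-voom. Unadjusted edgeR p-values were under 0.05 for 0 higher and 2 lower genes, against 10.1% and 7.64% of all tested genes. All 10 fold changes were negative (median -0.21), against 49.1% of all tested genes. Cnot1 and Ythdc1, the most abundant of the 10 genes, had log2 fold changes of -0.23 and -0.11 (edgeR adjusted p = 0.319 and 0.722).

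**Figure D4:**
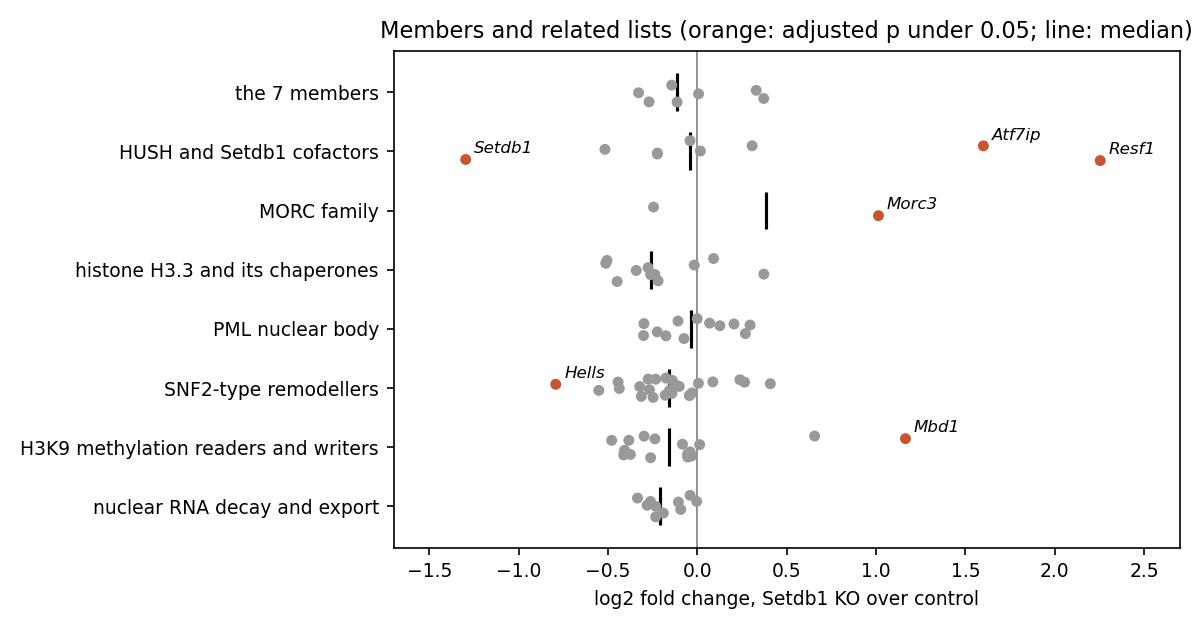
log2 fold changes of the 7 genes and of the tested genes of 7 related lists, 1 point per gene, with the median of each list as a black line and genes of adjusted p under 0.05 in orange. Resf1, Atf7ip, Morc3 and Mbd1 lie to the right, Setdb1 and Hells to the left, and none of the 7 genes is orange.

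The 7 fold changes were refitted under 16 alternatives, and none of the genes passed in any of them. Fam208a stayed between 0.25 and 0.48, Morc2a between 0.20 and 0.43, Atrx between -0.39 and -0.19, and Smarcad1 between -0.44 and -0.28. Mphosph8 and Pphln1 stayed negative throughout, and Daxx moved between -0.09 and 0.08. In the 15 alternatives that give an interval, the bounds of the 7 genes ran from a fold of 0.595 to a fold of 1.72.

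**Figure D5:**
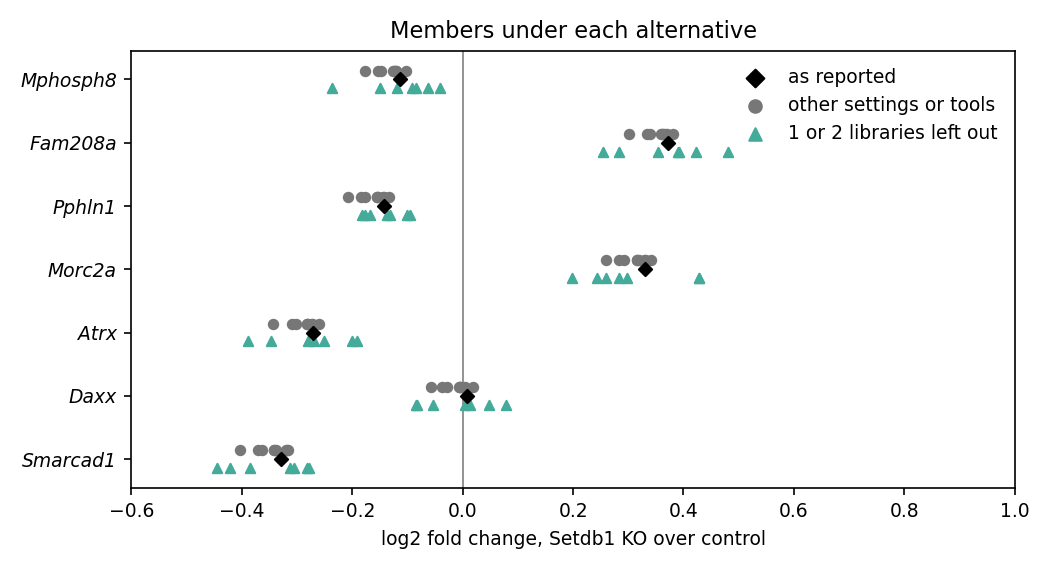
log2 fold change of each of the 7 genes as reported (diamonds), under other settings or tools (circles) and with 1 or 2 libraries left out (triangles). Fam208a and Morc2a stay right of 0, Atrx, Smarcad1, Mphosph8 and Pphln1 stay left of it, and Daxx lies on both sides.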

How the data were processed

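RNA was sequenced in 6 libraries, 3 per group. Per the labels' protocols, rRNA was depleted and a stranded total RNA kit was used, but a second kit is also named, so the kit is not settled. Per the submitters' processing notes, STAR, Salmon, DESeq2 1.34.0 and GRCm38 were used, and the role of each tool is not given in the sources used here. Counts per Ensembl gene were deposited as whole numbers in 1 table, not normalised. All 6 columns were used, and 55141 of 55487 genes had a symbol. Within each group, no library was a copy of another (chi-square over genes), and control libraries were not compared with KO libraries in this way.

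Counts were tested with edgeR 4.0.16 (TMM, default low-count filter, robust quasi-likelihood, group as the only term, two-sided) in R 4.3.3, with Benjamini-Hochberg adjustment over 11224 genes and a threshold of 0.05. SE were derived from the F statistic, and 95% intervals from the same fit. CPM were scaled by TMM, and levels per length used the union of GENCODE M21 exons. Alternatives were DESeq2 1.42.0, limma-voom (limma 3.58.1), other scalings and filters, removal of structural RNA genes, a replicate block, and libraries left out. The procedure was tested on simulated data. Python 3.11.15, pandas 2.3.3, SciPy 1.17.1 and matplotlib 3.10.9 did the rest.

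The genes and lists were chosen with earlier results of these data known. Named were the 7 genes and Setdb1, up to 4 called genes of each list or else its 2 most abundant, and the 2 genes of most similar profile to each of the 7, of which 1 is not reported here.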

Additional observations from a re-analysis of the deposited data

How the results depend on the processing

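None of the 7 genes passed under any of 16 alternatives, and the median of their fold changes, -0.11 as reported, ran from -0.18 to -0.04 (-0.17 to -0.04 with 1 library left out). Over all genes, 318 passed, against 511 without a low-count filter, 184 with DESeq2 and 152 to 345 with 1 library left out (152 without KO library 1, 157 without control library 2, 180 without KO library 2). Of 528 refits of the 33 named genes, 505 kept direction and side of the threshold. Hells lost its call in 3, with log2 fold changes of -0.78, -0.74 and -0.90 without control library 1, control library 2 and KO library 3. The other 20 changed sign near 0, and the cause was not tested. Daxx was negative with DESeq2 size factors (-0.0061), library totals alone (-0.058), no filter (-0.037), DESeq2 (-0.028), at least 1 CPM in 3 libraries (-0.0057), limma-voom (-0.0042), structural RNA genes removed (-0.0040) and control library 3 and KO library 1 both removed (-0.085), and ranged from -0.083 to 0.078 with 1 library left out. Bcar1 and Ubac2 were positive with upper quartile factors (0.00059 and 0.0030). They ranged from -0.13 to 0.081 and from -0.060 to 0.037 with 1 library left out. Sumo2 was positive (0.041) without control library 3 and KO library 1 together and ranged from -0.18 to 0.0024 with 1 left out, and Ythdc1 from -0.20 to 0.027.

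The deviations of same-numbered libraries correlated at 0.142, -0.0925 and -0.0615 for numbers 1, 2 and 3, over 11224 genes. These lay within the range of unlike-numbered libraries, -0.25 to 0.286. With 3 libraries a group this cannot show whether a number marks a pairing, and the labels do not say. The replicate block gave 247 changed genes and 0 of the 7, with a median of -0.12. Depth limits Daxx most, with 61 to 77 counts per library. The p-values rest on 3 libraries a group, and no molecular identifiers are named.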
